A study of Mus musculus with 2 samples.

Results

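The proteasome genes of mouse megakaryocytes were taken as all genes whose symbol starts with Psma to Psmg followed by a digit in both gene tables, without pseudogenes. This rule found 50 of 43346 genes, and 4 pseudogenes with 0 counts in both libraries were left out. No level was required of a member. Of the 50, 31 encode subunits of the standard 26S particle, 3 encode the inducible catalytic subunits of the immunoproteasome, 6 encode activators or an inhibitor, 7 encode assembly chaperones, and 2 encode core subunits known from testis (Psma8) and thymus (Psmb11). The last, Psmc3ip, shares only the start of its symbol and encodes a meiotic recombination protein that is no part of the proteasome. The members lie on 16 chromosomes, 10 of them on chromosome 11.

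The proteasome degrades proteins tagged with ubiquitin. Its barrel, the 20S core, has outer rings of alpha subunits that gate the entry and inner rings of beta subunits, of which Psmb5, Psmb6 and Psmb7 cut peptide bonds. The 19S cap, made of a base with ATPases and a lid, binds, unfolds and feeds in the substrate. In immune cells and after interferon the catalytic subunits can be replaced by Psmb8, Psmb9 and Psmb10. Megakaryocytes form platelets, and drugs that block the proteasome are known to lower platelet counts in patients.

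The study measured polyadenylated RNA of megakaryocytes, primary cells from mouse embryos of day 14.5 pooled over both sexes, in 2 paired-end libraries of 1 group. No strain, genotype, treatment or second group is named in the labels. Both libraries cite the same biosample and donor, so the spread between them may be technical. Replicate 1 held 42099216 expected counts and replicate 2 held 2275922, an 18.5-fold difference. At a floor of 3 counts, a gene with no count may still stand at up to 1.32 CPM (counts scaled to a common library total) in replicate 2, and at up to 0.0713 CPM in replicate 1. All 9 megakaryocyte markers were detected, with a summed level of 15323 TPM in replicate 1 and 21292 in replicate 2. TPM is a level per effective transcript length, scaled to the same total in each library, so it can be compared between genes. With 1 group and 2 libraries no difference could be tested, and the ratios below compare these libraries and not conditions. In such bulk samples, fewer cells of a type and less RNA per cell cannot be told apart.

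Nearly all members were detected in the megakaryocytes. A mean of at least 1 TPM was reached by 47 of 50 members, against 22.7% of all genes and 42.5% of protein coding genes. The median member stood at 30.6 TPM in replicate 1 against 11.6 TPM in replicate 2. Over members, the median of the mean level was 24.3 TPM, and over all 9858 genes at or above 1 TPM it was 10.2 TPM. The members summed to 2922 TPM in replicate 1, which is 0.292% of the library, and to 1442 TPM in replicate 2, which is 0.144%. The 3 members under a mean of 1 TPM were Psma8 and Psmb11, both with 0 counts in both libraries, and the ATPase gene Psmc6 at 0.805 ± 1.14 TPM (SD, n = 2). In replicate 2, 5 of the 50 members had no count while replicate 1 had some, namely Psma5, Psmc2, Psmc6, Psmd10 and Psmc3ip. The same held for 4464 of all 43346 genes, and for 715 of the 9858 genes at or above 1 TPM. The subunits of one particle, which are built in equal copy, were not at equal RNA level. Among the 31 standard subunits the SD of log2(TPM + 1) was 1.82 in replicate 1 and 2.48 in replicate 2. The order of these 31 was similar in both libraries, with a Spearman correlation of 0.92, against 0.76 over the 9858 genes. Both are descriptions across genes that share 2 libraries and their depths.

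**Figure D1:**
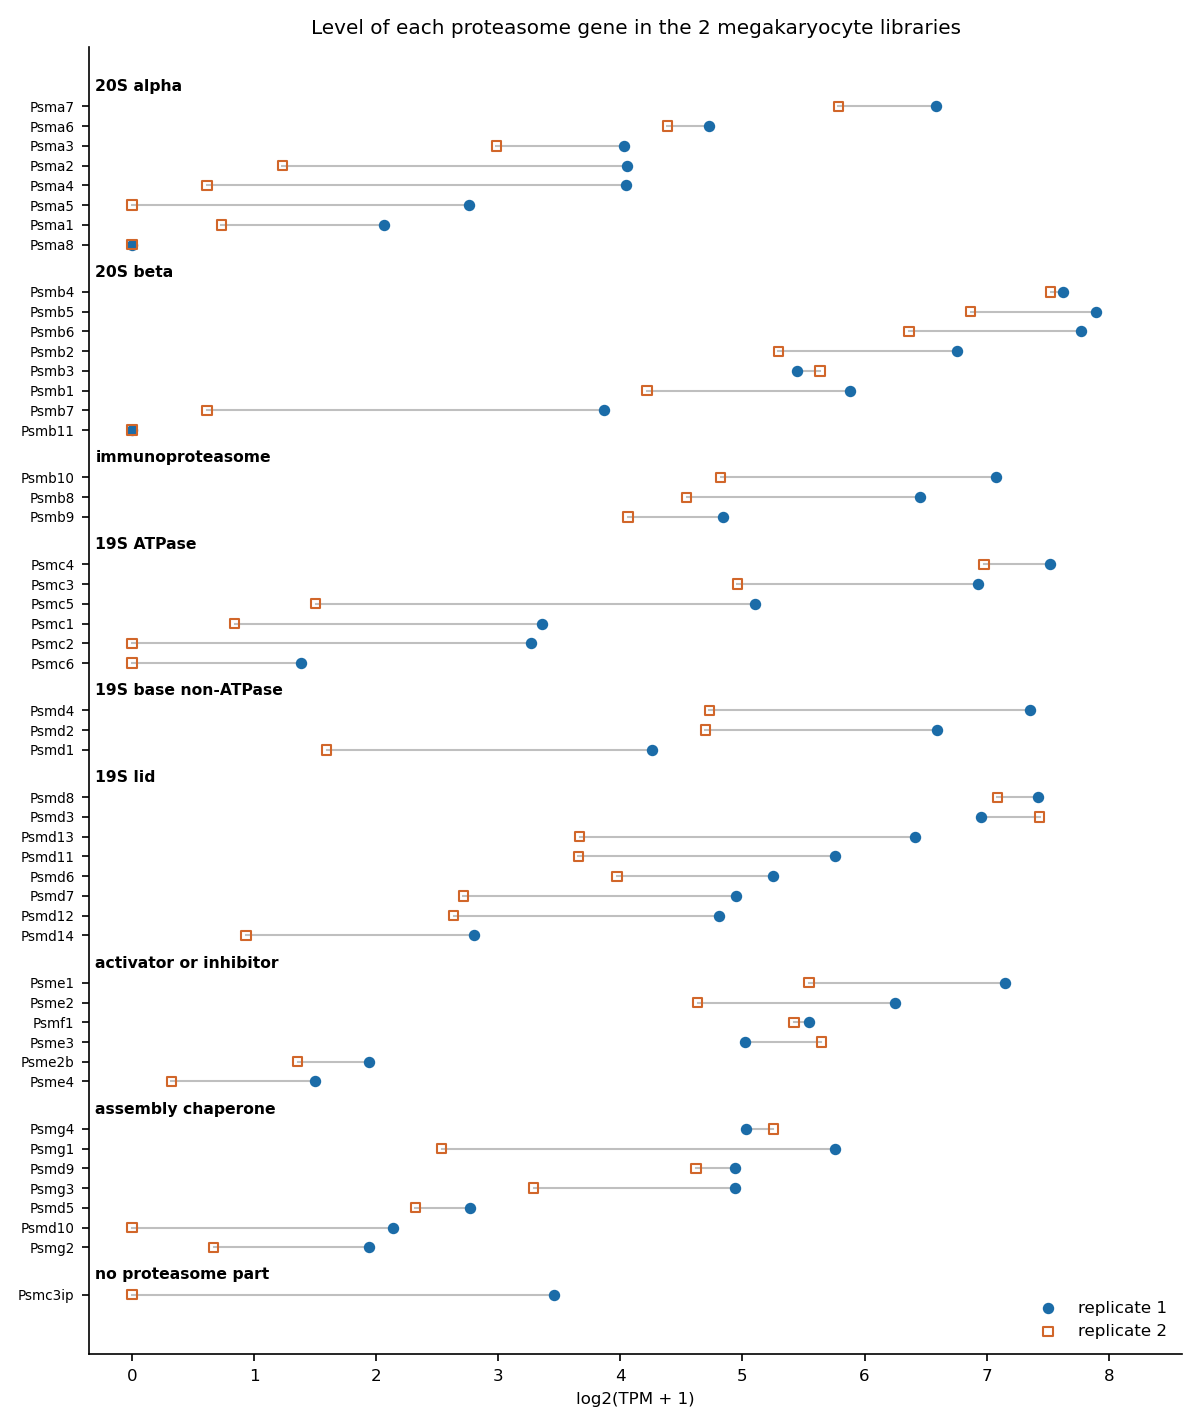
Level of each of the 50 members on a log2(TPM + 1) axis, grouped by role, with filled circles for replicate 1, open squares for replicate 2 and a line joining the values of a gene. Most squares lie left of their circles, Psmb3, Psmd3, Psme3 and Psmg4 lie the other way, and Psma8 and Psmb11 are at 0 in both libraries. By the authors' other estimate, the posterior mean TPM, Psmb3 and Psmg4 were lower in replicate 2.

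The 7 standard alpha subunits, which form the outer rings and the gate of the core, summed to 176 TPM in replicate 1 and 83.4 in replicate 2. Psma7 was the highest, at 95.2 TPM in replicate 1 against 54.1 in replicate 2. Psma6 followed at 25.4 and 19.9 TPM in replicates 1 and 2. Both were above every other alpha subunit in both libraries. Psma1 was the lowest standard alpha subunit in replicate 1, at 3.18 TPM, and had 0.660 TPM from 1 count in replicate 2. Psma5 stood at 5.77 TPM from 250 counts in replicate 1 and had 0 counts in replicate 2. Against the floor of 3 counts, Psma5 was at least 3.32-fold lower in replicate 2 on counts scaled by TMM factors, which set the libraries on a common footing across genes. Psma4, with 623 counts in replicate 1 and 1 in replicate 2, had a ratio of 0.0402 with an exact 95% interval from 0.00102 to 0.225. Such intervals (Clopper-Pearson) cover counting error only and no spread between cultures. Psma2 was at 15.6 TPM in replicate 1 and 1.35 in replicate 2, and Psma3 at 15.3 and 6.92 TPM. Psma4, at 15.5 TPM in replicate 1, had 0.530 TPM in replicate 2 by the maximum likelihood estimate and 7.87 by the authors' posterior mean, so the order of these 3 in replicate 2 depends on the estimate.

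The 7 standard beta subunits were the most abundant group, with a summed level of 872 TPM in replicate 1 against 485 TPM in replicate 2. The structural subunit Psmb4 was the highest by mean level, at 197 TPM in replicate 1 and 183 in replicate 2 (190 ± 10.1, SD, n = 2). The catalytic subunits Psmb5, known for the chymotrypsin-like site, and Psmb6, known for the caspase-like site, came next. Psmb5 had 237 TPM in replicate 1 against 116 in replicate 2 (176 ± 85.2). Psmb6 had 218 TPM in replicate 1 and 81.4 in replicate 2 (149 ± 96.3). These 3 neighbours in the order of levels differed by less than their spread between the libraries. The third catalytic subunit, Psmb7, known for the trypsin-like site, was the lowest standard beta subunit, with 13.6 TPM in replicate 1 against 0.530 TPM from 1 count in replicate 2. Its level lay below that of Psmb5 and Psmb6 in both libraries. The structural subunits Psmb2 (107 and 38.2 TPM in replicates 1 and 2), Psmb1 (57.9 and 17.6 TPM) and Psmb3 (42.7 and 48.7 TPM) lay between them.

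The inducible subunits of the immunoproteasome were all present. Psmb10, the partner of Psmb7, had 134 TPM in replicate 1 and 27.3 in replicate 2. Psmb8, the partner of Psmb5, had 86.5 TPM in replicate 1 against 22.3 in replicate 2. Psmb9, the partner of Psmb6, had 27.7 TPM in replicate 1 and 15.7 in replicate 2. The order Psmb10, Psmb8, Psmb9 was the same in both libraries, but in replicate 2 the counting intervals of neighbouring ratios held 1 (Psmb10 to Psmb8 1.22, 0.787 to 1.93, and Psmb8 to Psmb9 1.42, 0.828 to 2.47). Set against its constitutive partner by TPM, Psmb8 stood at 0.365 of Psmb5 in replicate 1 (interval 0.350 to 0.381) and 0.192 in replicate 2 (0.129 to 0.280). Psmb9 stood at 0.127 of Psmb6 in replicate 1 (0.119 to 0.135) and 0.193 in replicate 2 (0.120 to 0.30). Psmb10 went the other way, at 9.83 times Psmb7 in replicate 1 (8.96 to 10.8) and 51.6 times in replicate 2 (8.89 to 2073, since Psmb7 had 1 count). By posterior mean TPM the latter was 12.5. In both libraries, then, the constitutive gene led for the Psmb5 and Psmb6 sites and the inducible gene led for the Psmb7 site. The 3 inducible genes together stood at 0.530 of the 3 constitutive genes in replicate 1 and 0.330 in replicate 2.

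**Figure D2:**
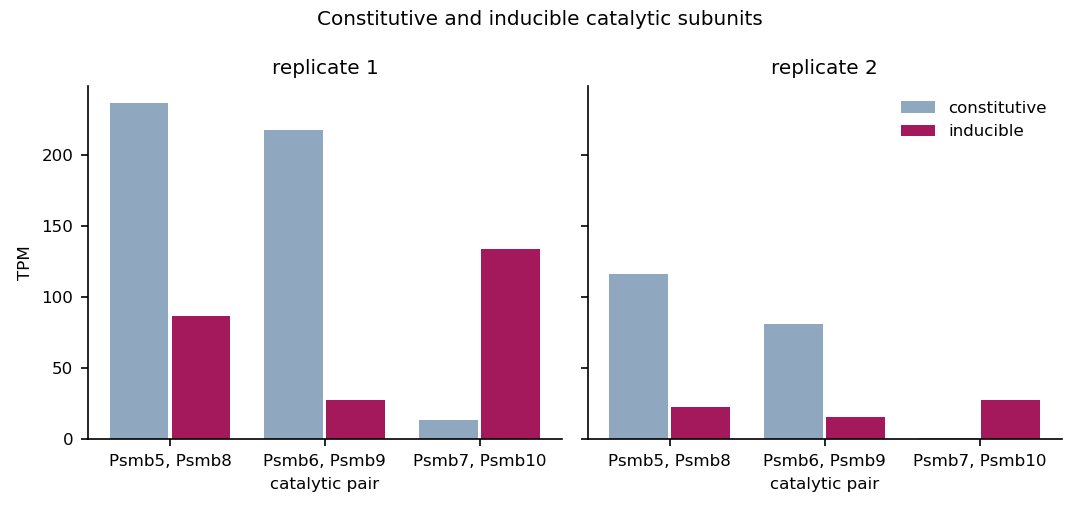
TPM of each constitutive catalytic subunit (left bar of a pair) and its inducible partner (right bar) in replicate 1 and replicate 2, on an axis starting at 0. The constitutive bar is taller for Psmb5 and Psmb6, and the inducible bar is taller for Psmb10 against Psmb7, in both libraries.

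Immunoproteasome genes are also abundant in macrophages and other blood cells, and the macrophage and granulocyte markers stood lower in replicate 2 as well. The 9 macrophage markers summed to 874 TPM in replicate 1 against 229 TPM in replicate 2, and all 7 that could be compared were at least 2-fold lower in replicate 2. Of these markers Csf1r, the macrophage growth factor receptor, was at 48.5 and 2.96 TPM in replicates 1 and 2, and Adgre1 was at 4.83 and 0.180 TPM. Mrc1 and Vcam1, with 1 and 5 counts in replicate 1 and 0 in replicate 2, could not be compared. The 8 granulocyte markers summed to 813 TPM in replicate 1 and 150 in replicate 2, and all 5 compared were at least 2-fold lower in replicate 2. S100a8, S100a9, Ltf and Camp had 0 counts there. The immunoproteasome sum was 248 TPM in replicate 1 against 65.4 in replicate 2. The part of these other cells in the immunoproteasome result was not tested. The 8 erythroid markers went the other way in sum, from 7083 to 13896 TPM in replicates 1 and 2, led by Hba-a1 (4480 and 12715 TPM), with 1 of 5 compared at least 2-fold higher and 1 that much lower. Lymphoid markers were near 0, summing to 2.83 TPM in replicate 1 and 0.730 in replicate 2, with 4 of the 8 at 0 counts in both.

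Promoters of catalytic pairs and of the activator gene Psme1 are shown because the partners of a pair differed in level and are known to answer to different factors. The sequences are from RefSeq on GRCm38.p6, run from 250 bases before to 50 after the annotated start, and are written in the direction of the gene. A promoter was found for 42 of the 50 members. Matches to the GC box (GGGCGG) and the CCAAT box (CCAAT) were searched too but are left in small letters. Capitals mark only matches to the other 3 searched motifs, which are named next. In Psmb5 (chr14:54617946-54618245, minus strand) and Psmb6 (chr11:70525107-70525406, plus strand) they mark the core of the antioxidant response element, TGACNNNGC, which NRF factors bind. In Psmb8 (chr17:34197945-34198244, plus strand) they mark the core of a gamma-activated site, TTCNNNGAA, known from genes that respond to interferon gamma. In Psme1 (chr14:55578244-55578543, plus strand) they mark, on the opposite strand, the core of the interferon-stimulated response element, 2 copies of GAAA with any 2 bases between them. Psmb9 (chr17:34187281-34187580, minus strand) held none of these 3 motifs. The windows of Psmb8, Psmb9 and Psme1 lie wholly inside the gene bounds of GENCODE M21 (Psmb8 from 34197721, Psmb9 up to 34187764, Psme1 from 55578123). For these genes, motif positions and the lack of a motif hold for the RefSeq starts only.
Psmb5: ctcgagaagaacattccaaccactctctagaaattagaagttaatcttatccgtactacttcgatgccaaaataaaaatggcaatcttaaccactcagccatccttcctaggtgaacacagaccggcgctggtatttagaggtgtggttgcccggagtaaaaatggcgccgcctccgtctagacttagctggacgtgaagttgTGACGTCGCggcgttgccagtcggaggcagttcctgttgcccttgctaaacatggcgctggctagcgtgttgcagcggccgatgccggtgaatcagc
Psmb6: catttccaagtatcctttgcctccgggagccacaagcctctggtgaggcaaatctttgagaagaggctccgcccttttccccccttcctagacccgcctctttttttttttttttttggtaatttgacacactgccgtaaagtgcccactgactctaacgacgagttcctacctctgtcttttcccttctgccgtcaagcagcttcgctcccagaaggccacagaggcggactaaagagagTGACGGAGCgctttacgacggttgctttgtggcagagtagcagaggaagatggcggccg
Psmb8: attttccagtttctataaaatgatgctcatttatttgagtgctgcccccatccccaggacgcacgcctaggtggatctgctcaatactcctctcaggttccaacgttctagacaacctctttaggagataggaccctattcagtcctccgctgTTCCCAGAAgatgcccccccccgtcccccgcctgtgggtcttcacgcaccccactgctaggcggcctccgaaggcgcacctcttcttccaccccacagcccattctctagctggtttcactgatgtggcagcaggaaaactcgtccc
Psmb9: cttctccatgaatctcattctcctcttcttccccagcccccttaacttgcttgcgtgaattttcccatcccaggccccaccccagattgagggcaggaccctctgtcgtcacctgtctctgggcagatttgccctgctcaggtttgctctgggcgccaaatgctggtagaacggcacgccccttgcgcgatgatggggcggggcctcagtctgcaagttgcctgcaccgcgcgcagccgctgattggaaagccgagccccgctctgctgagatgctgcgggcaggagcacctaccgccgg
Psme1: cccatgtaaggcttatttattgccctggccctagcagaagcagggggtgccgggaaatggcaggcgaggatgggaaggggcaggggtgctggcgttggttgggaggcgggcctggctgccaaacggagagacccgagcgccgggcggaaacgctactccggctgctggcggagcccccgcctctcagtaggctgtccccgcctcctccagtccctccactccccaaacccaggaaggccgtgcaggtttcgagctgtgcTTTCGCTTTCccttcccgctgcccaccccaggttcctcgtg

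The antioxidant response element core began 47 bases before the start in Psmb5 and 9 bases before it in Psmb6, that is at positions -47 and -9 with the start base as 1. On either strand it was found in 6 of 42 member promoters (14.3%), namely Psmb5, Psmb6, Psmc6, Psmd12, Psmd9 and Psme4, against 14% of all 27025 promoters of the same length. The gamma-activated site core began at position -97 in Psmb8 and was found in 3 of 42 member promoters (7.14%, Psmb8, Psmd2 and Psmg1) against 9.55% of all. The interferon-stimulated core began at position 10 in Psme1. It was found in 5 of 42 (11.9%, Psmb3, Psmd4, Psmd9, Psme1 and Psmg4) against 3.99% of all. The GC box GGGCGG, bound by SP1, was in 54.8% of member promoters against 38.2% of all, and the CCAAT box (CCAAT) in 35.7% against 41.1%. The same bases can count for more than 1 motif. These shares describe letters in the window and not binding.

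The 6 ATPases of the 19S base, which unfold substrates and push them into the core, form a ring with 1 copy of each. Their summed level was 356 TPM in replicate 1 against 157 TPM in replicate 2, and they were the most uneven of the standard groups, with an SD of log2(TPM + 1) of 2.36 and 2.91 in replicates 1 and 2. Psmc4 was the highest, at 182 TPM in replicate 1 and 125 in replicate 2. Psmc3 came next with 121 TPM in replicate 1 against 30.1 in replicate 2. These 2 genes held most of the summed ATPase level in both libraries. Psmc5 had 33.4 TPM in replicate 1 and 1.84 from 4 counts in replicate 2. Psmc1 had 9.26 TPM in replicate 1 against 0.790 TPM from 2 counts in replicate 2. Both rested on few counts in replicate 2. Psmc2 had 8.65 TPM from 560 counts in replicate 1 and 0 counts in replicate 2, at least 7.45-fold lower on scaled counts. Psmc6 was the lowest, with 1.61 TPM from 90 counts in replicate 1 and 0 counts in replicate 2. Thus 3 of the 6 ATPases were at or above 1 TPM in replicate 2, while all 6 were in replicate 1.

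The 3 other genes of the base all stood lower in replicate 2, with sums of 276 and 52.4 TPM in replicates 1 and 2. Psmd4, a receptor for ubiquitin chains, had 163 TPM in replicate 1 and 25.5 in replicate 2, a scaled ratio of 0.172 (0.127 to 0.226). Psmd2, a large scaffold, had 95.6 TPM in replicate 1 against 24.9 in replicate 2. Psmd1, the other scaffold, had 18.2 TPM in replicate 1 and 2.02 in replicate 2, a ratio of 0.0596 (0.0193 to 0.139). Psmd1 was the lowest of the 3 in both libraries.

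The 8 lid genes summed to 530 TPM in replicate 1 against 357 TPM in replicate 2. Psmd8 was the highest by mean level, at 170 TPM in replicate 1 and 135 in replicate 2 (152 ± 24.5, n = 2). Psmd3 had 123 TPM in replicate 1 against 172 in replicate 2 (148 ± 35.0), so the spread of these neighbours overlapped. The lowest was Psmd14, which encodes the enzyme that takes ubiquitin off the substrate, with 5.99 TPM in replicate 1 and 0.910 from 1 count in replicate 2. By posterior mean TPM it was at 7.01 and 7.96. The range from the highest to the lowest lid gene was thus wide although the lid holds 1 copy of each. Psmd13 had 84.0 TPM in replicate 1 against 11.7 TPM in replicate 2. The authors' posterior mean TPM for Psmd13 was 88.5 in replicate 1 but 152 in replicate 2, so its direction between the libraries on the TPM scale depended on which deposited estimate was read. Its 6010 and 40 expected counts gave a ratio of 0.167 (0.119 to 0.227). The remaining 4, Psmd11, Psmd6, Psmd7 and Psmd12, ranged from 27.0 to 53.0 TPM in replicate 1 and from 5.21 to 14.7 TPM in replicate 2.

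Activators bind the ends of the core in place of the 19S cap. Psme1 and Psme2 encode the subunits of the interferon-responsive activator. Psme1 had 141 TPM in replicate 1 and 45.7 in replicate 2. Psme2 had 75.1 TPM in replicate 1 against 23.8 in replicate 2. The ratio of Psme1 to Psme2 by TPM was 1.87 in replicate 1 (1.76 to 1.99) and 1.92 in replicate 2 (1.24 to 3.06), and both genes were lower in replicate 2 by a like amount (scaled ratios 0.518 and 0.491). By posterior mean TPM the ratio of Psme1 to Psme2 was 1.85 and 1.26 in replicates 1 and 2. The retrocopy Psme2b, at 2.85 TPM in replicate 1 and 1.56 in replicate 2, shares fragments with Psme2, and both had counts that were not whole, so their values are uncertain.

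The nuclear activator Psme3 had 31.4 TPM in replicate 1 against 49.1 TPM in replicate 2, while its scaled count ratio was 0.765 (0.617 to 0.939). TPM and counts thus pointed in opposite directions. The effective length assigned to the gene was 2529 bases in replicate 1 and 1042 in replicate 2, and a longer transcript of 2664 bases took 100% of its TPM in replicate 1 and a shorter one of 698 bases took 75% in replicate 2. Psme4, a large activator known from spermatids and DNA repair, was the lowest, with 1.83 TPM in replicate 1 and 0.25 from 3 counts in replicate 2. Psmf1, first described as an inhibitor of the core, had 45.8 TPM in replicate 1 against 41.9 in replicate 2 (43.8 ± 2.75), a narrow spread. Its ratio on scaled counts was 1.15 (0.945 to 1.39).

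The assembly chaperones, which help build the particle and are not part of it, summed to 156 TPM in replicate 1 and 78.8 in replicate 2. Of the chaperones of the core, Psmg4 was the highest by mean, at 31.6 TPM in replicate 1 against 37.1 TPM in replicate 2. Psmg1 had 53.1 TPM in replicate 1 and 4.80 from 8 counts in replicate 2. Psmg2, the lowest of the core chaperones and the partner of Psmg1 in a dimer, had 2.84 TPM in replicate 1 against 0.590 TPM from 1 count in replicate 2. Partners in this dimer were therefore at different levels in both libraries, and Psmg3, the partner of Psmg4, had 29.6 and 8.78 TPM. Of the chaperones of the base, Psmd9 had 29.7 TPM in replicate 1 and 23.6 in replicate 2. Psmd5 had 5.83 and 4.0 TPM in replicates 1 and 2. The intervals of both ratios held 1. Psmd10 had 3.41 TPM from 173 counts in replicate 1 and 0 counts in replicate 2. Psmc3ip, the recombination gene, had 10 TPM from 313 counts in replicate 1 and 0 counts in replicate 2, at least 4.16-fold lower on scaled counts.

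Across roles, the ratios of replicate 2 to replicate 1 leaned low. Counts were scaled by TMM factors fitted across genes, and a ratio was read for genes with a mean of at least 100 counts, which 43 members passed (not Psma1, Psma8, Psmb11, Psmc6, Psmd10, Psme2b and Psmg2). Replicate 1 was much the deeper library, so this mean of unscaled counts rests mainly on it and favours genes that stood higher there. Of these 43, 28 were at least 2-fold lower in replicate 2, where 33.8% of all 8194 genes so compared were. None was at least 2-fold higher, where 15.7% of all genes were. The ratio was below 1 for 37 of 43, against 58.0% of all genes. The median log2 ratio was -1.49 over members and -0.30 over all genes compared. The counting interval lay wholly under 1 for 35 members (43.5% of all genes), wholly above 1 for Psmd3 alone (31.3%), and held 1 for 7 members, namely Psmb3, Psmb4, Psmd5, Psmd8, Psmd9, Psmf1 and Psmg4 (25.1%). It lay wholly at or under 0.5 for 20 members, against 18.9% of all genes. A count of 0 in replicate 2 was found for 3 of the 43 members, Psma5, Psmc2 and Psmc3ip, and for 4.48% of all genes. A mean of at least 50 CPM weighs both libraries alike and was passed by 17 members. The median log2 ratio was then -0.80 over members and 0.37 over all genes so compared. Of the 17 members, 7 were at least 2-fold lower (15.8% of all genes) and none was as much higher (26.4%).

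**Figure D3:**
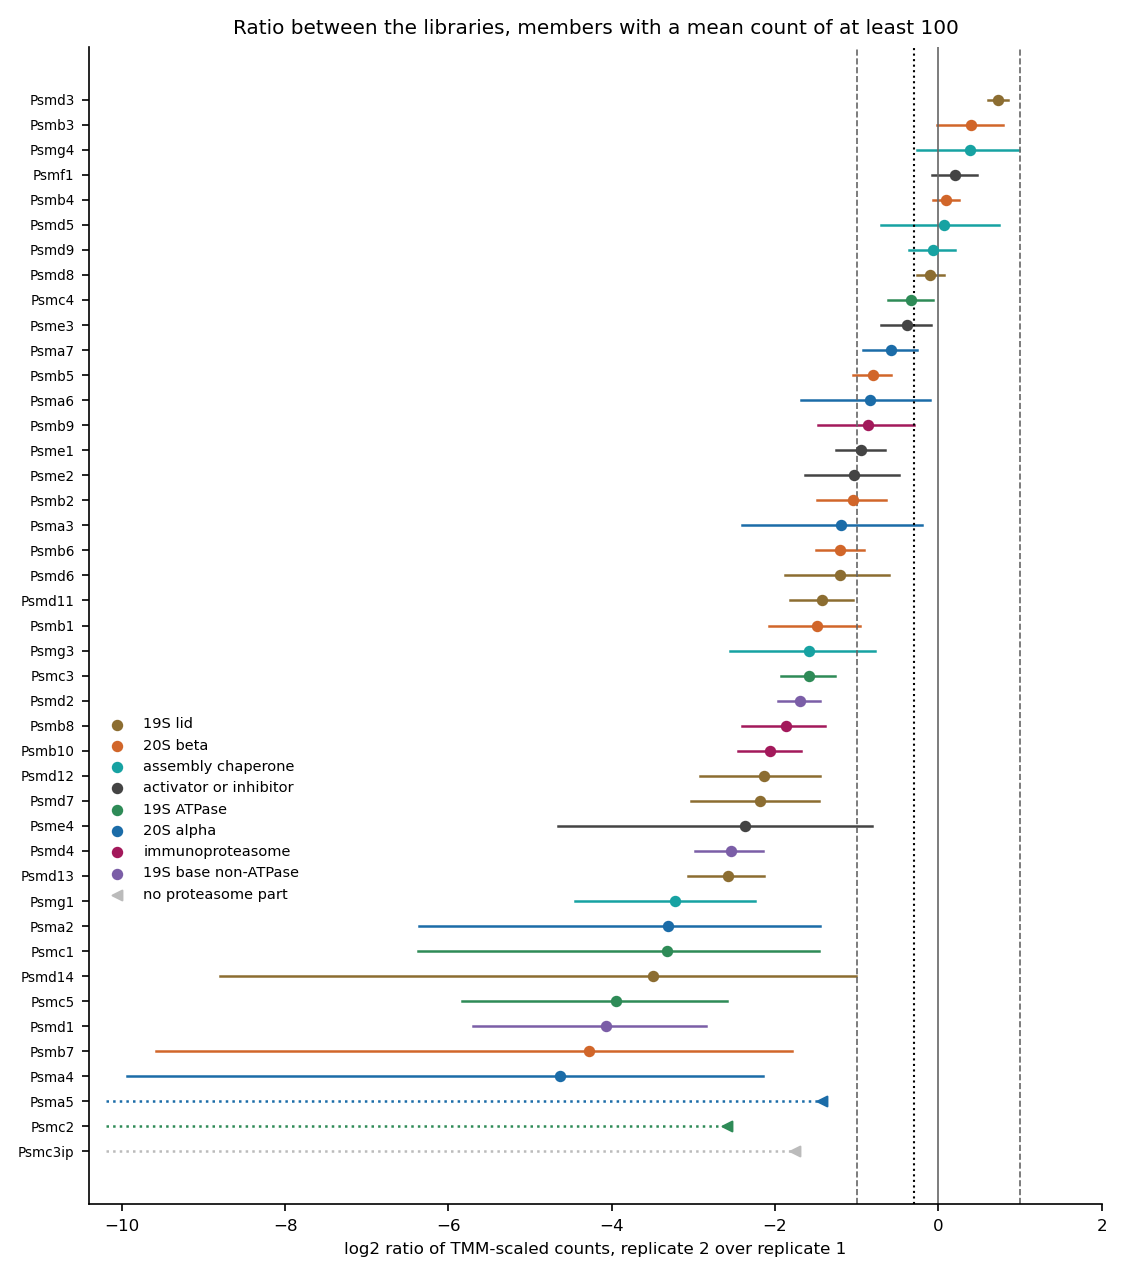
Log2 ratio of scaled counts, replicate 2 over replicate 1, for the 43 members with a mean of at least 100 counts, coloured by role, with exact 95% counting intervals. Triangles give the upper limit for 3 genes at 0 counts in replicate 2, dashed lines mark 2-fold, the dotted line is the median of all genes compared (-0.30), and 37 of the 43 members lie below 0.

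The largest ratios came from different parts of the particle. Psmd3 had 9610 counts in replicate 1 and 638 in replicate 2, a ratio of 1.66 (1.53 to 1.80). Psmb3 followed at 1.32 (0.992 to 1.73), Psmg4 at 1.31 (0.833 to 1.98), Psmf1 at 1.15 and Psmb4 at 1.07 (0.956 to 1.19). Of these 5, Psmd3 alone stayed above 1 when counts were scaled by library totals (log2 ratio 0.30), while Psmb3 and Psmg4 were then at -0.04, Psmf1 at -0.24 and Psmb4 at -0.34. With that scaling 33 of 43 members were at least 2-fold lower (43.5% of all genes) and none was as much higher (7.31%). The smallest measured ratios were those of Psma4 at 0.0402, Psmb7 at 0.0514 (0.00130 to 0.288), Psmd1 at 0.0596, Psmc5 at 0.0647 (0.0176 to 0.166) and Psmd14 at 0.0889 (0.00224 to 0.499). The 3 genes with 0 counts in replicate 2 are bounded only and cannot be ranked among them. With TMM factors, 33.8% of all genes compared were at least 2-fold lower, and the counts by role rest on few genes each. By role, at least 2-fold lower levels were found for 4 of 6 alpha, 4 of 7 beta, 2 of 3 immunoproteasome, 4 of 5 ATPase, 3 of 3 other base, 6 of 8 lid, 2 of 5 activator or inhibitor and 2 of 5 chaperone genes. The activator or inhibitor and chaperone genes were near the share of all genes. The median log2 ratio ran from -3.32 for the ATPases to -0.07 for the chaperones, with -2.25 for alpha, -1.05 for beta, -1.87 for immunoproteasome, -2.54 for other base, -1.78 for lid and -0.95 for activator or inhibitor genes. With genes at 0 counts set to the floor of 3 counts, the median was -2.90 for the ATPases and -1.46 for the alpha subunits.

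Among members the ratio moved with base composition and level. Across the 43 members the Pearson correlation of the log2 ratio with the GC content of the transcripts was 0.40, and across 8171 genes it was 0.29. These are descriptions across genes that share both libraries, and the members at 0 counts in replicate 2 were set to the floor. Among the 22 members with a GC content of at least 50.6%, the median log2 ratio was -0.99 and 11 were at least 2-fold lower. Among the 21 below it, the median was -2.37 and 17 were at least 2-fold lower, 3 of them at 0 counts. For all genes split at the same GC content the medians were -0.01 and -0.91. At least 2-fold lower were 1204 of 4946 genes at or above it and 1555 of 3225 below it. Of these genes, 111 at or above it and 253 below it had 0 counts in replicate 2. With the GC trend over all genes removed, the members' median was -1.22 against -0.35 for all genes, and 25 of 43 members were at least 2-fold lower against 33.7% of all. None was then at least 2-fold higher, where 13.9% of all were. With log2(TPM + 1) in replicate 1 the correlation was 0.41 across members but 0.08 across all 8194 genes. Members at or above the median level of 37.0 TPM in replicate 1 had a median of -1.12, and the rest had -2.37. The part of depth, level and GC content in the member ratios was not tested.

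**Figure D4:**
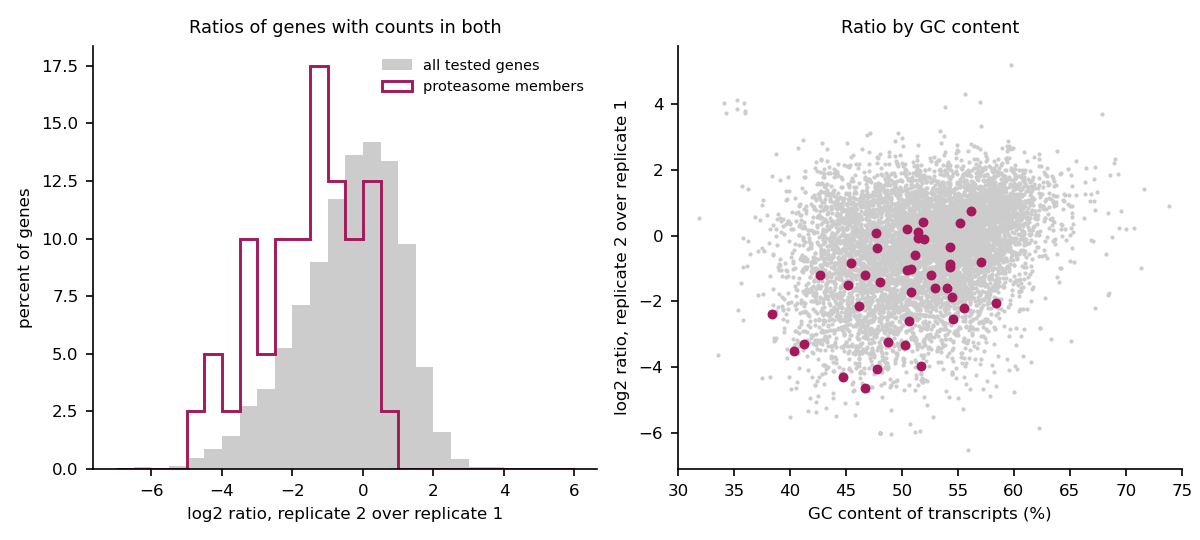
Left, the distribution of log2 ratios (replicate 2 over replicate 1) of members and of all compared genes with counts in both libraries, in percent of genes; right, the same ratio against the GC content of transcripts in percent, with members in colour. Members sit to the left of the bulk of genes in the left panel and below its middle at most GC contents in the right panel, with medians of -1.49 and -0.30 when genes at 0 counts are counted too.

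The dominant transcript, the one with the highest TPM of its gene, could be compared for 31 members with several annotated transcripts and a mean of at least 5 TPM. It was the same in both libraries for 24 (77.4%), against 66.2% of 4695 genes. On posterior mean TPM it was the same for 21 of 32 members (65.6%), against 63.9% of genes. In Psmd3 it took 98.5% and 99.2% of the gene's TPM in replicates 1 and 2, and in Psmb4 it took 100% and 96.3%, with at least 100 counts in replicate 2 for both. The 7 that differed were Psma3, Psma6, Psmc3, Psmd1, Psmd9, Psme2 and Psme3. For Psmd9, a coding transcript of 2597 bases took 95.6% in replicate 1, while a processed transcript of 2634 bases, which has no annotated coding frame, took all of the level in replicate 2. For Psma6, a coding transcript of 1042 bases took 55.5% in replicate 1 and 0% in replicate 2, where a processed transcript of 520 bases led. For Psmd1, a coding transcript of 3112 bases took 98.5% in replicate 1 and none in replicate 2, where a retained intron led from 1 count. The switch in Psmc3 was small, since the coding transcript that led in replicate 1 took 44.8% there and 42.1% in replicate 2. For Psma3 and Psme2, retained-intron transcripts led in replicate 1, with 33.6% and 55.2%, and coding transcripts led in replicate 2. Of the 7 members with at least 100 counts in replicate 2, the dominant transcript was the same for 6, all but Psmd9.

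Genes that work beside the proteasome but do not carry its symbols were read from 6 lists with 50 genes. Of the 45 compared, 10 passed 2-fold upward and 12 downward in replicate 2, where 15.7% and 33.8% of all genes did. Their median log2 ratio was -0.30, as it was over all genes. With counts scaled by library totals, 5 passed upward and 17 downward, where 7.31% and 43.5% of all genes did. Among other components of the cap, Adrm1, a ubiquitin receptor of the base, had 490 TPM in replicate 1 against 1442 TPM in replicate 2, above every Psm gene in both libraries. Its scaled ratio was 3.47 (3.36 to 3.59), opposite in direction to that of the receptor gene Psmd4. The counts of Adrm1 were not whole, so part of its fragments are shared with other features. Sem1, a small lid subunit, had 108 TPM in replicate 1 and 2.03 in replicate 2, a ratio of 0.0221 (0.00719 to 0.0517). Uchl5, the deubiquitinase that binds Adrm1, had 76.4 and 20.4 TPM in replicates 1 and 2, a ratio of 0.324. The lowest of this list was Ube3c, at 0.820 and 0.110 TPM. Components of one cap thus differed between the libraries in both directions. Akirin2, which brings proteasomes into the nucleus, had 65.1 TPM in replicate 1 against 150 in replicate 2 (ratio 2.43), and Pomp, the maturation factor of the core, had 30.8 and 5.51 TPM (ratio 0.208). Fbxo7, a binding partner of Psmf1, had 6.83 and 1.06 TPM, but its scaled count ratio was 0.688 (0.312 to 1.32), within 2-fold.

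The list of proteasome gene transcription holds Nfe2l1, the factor that raises proteasome genes when activity is short, its partners and the proteins that release it. Nfe2l1 had 28.0 TPM in replicate 1 and 34.9 in replicate 2 (ratio 1.29, 1.12 to 1.49), while the related Nfe2l2 had 32.9 and 12.2 TPM (0.490, 0.365 to 0.645). The highest of the list were the small MAF partner Mafg (97.6 and 61.8 TPM), the extraction ATPase Vcp (54.1 and 15.5 TPM, ratio 0.338) and Mafk (38.7 and 27.3 TPM), and the protease gene Ddi2 was lowest (1.67 and 0.440 TPM). None of the 8 was at least 2-fold higher (15.7% of all genes), and Vcp and Nfe2l2 were at least 2-fold lower (33.8%). Of the ubiquitin genes, Ubb was the highest, with 1106 and 1111 TPM in replicates 1 and 2. The activating enzyme gene Uba1 had 194 and 138 TPM, and Uba6 was lowest with 0.530 TPM and 0 counts in replicates 1 and 2. Only Rps27a, a fusion of ubiquitin with a ribosomal protein, passed 2-fold among the 5 compared, at 106 and 9.58 TPM (ratio 0.117), while 2 of the 5 did with counts scaled by library totals. Ratios of these lists between 1 and 1.35, such as those of Nfe2l1, Ubb and Tap1, fall below 1 when counts are scaled by library totals.

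Shuttle factors, which carry ubiquitin-tagged proteins to the proteasome, and cofactors of Vcp had 6 of 11 genes at least 2-fold higher in replicate 2 (15.7% of all genes) and 2 that much lower (33.8%). With counts scaled by library totals, 3 of the 11 stayed at least 2-fold higher (Nploc4, Ubqln2 and Zfand5). Zfand5 had 136 and 396 TPM in replicates 1 and 2, and Rad23b had 233 and 232 TPM. On scaled counts the ratio was 3.46 (3.30 to 3.63) for Zfand5 and 0.945 (0.844 to 1.05) for Rad23b. Ddi1 had 0 counts in both libraries. The list of the loading of peptides on MHC class I, for which immunoproteasomes are known to cut peptides, had 12 genes compared. With TMM factors, 1 was at least 2-fold higher (15.7% of all genes) and 4 were that much lower (33.8%), shares not above those of all genes. With counts scaled by library totals, 1 of the 12 was at least 2-fold higher (7.31% of all genes) and 7 were that much lower (43.5%). The highest genes of this list were Pdia3 (316 and 1606 TPM, ratio 2.98), Tapbp (557 and 410 TPM, ratio 1.51) and Calr (491 and 242 TPM, ratio 0.581). The peptide transporter genes Tap1 (26.1 and 29.1 TPM, ratio 1.35) and Tap2 (99.5 and 90.2 TPM, ratio 0.766) stayed within 2-fold. The light chain gene B2m had 96.0 and 25.7 TPM (ratio 0.312), and the heavy chain genes H2-D1 and H2-K1 had 348 and 175 TPM and 227 and 91.0 TPM. The chaperone gene Canx (75.2 and 4.62 TPM) and the interferon pathway gene Irf1 (4.87 and 1.01 TPM) were lower in replicate 2 by at least 2-fold on scaled counts. Tapbpl had 5.81 and 4.64 TPM, the class I activator Nlrc5 had 2.06 and 0.240 TPM, and the trimming enzyme gene Erap1 was lowest at 0.370 and 0.700 TPM.

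**Figure D5:**
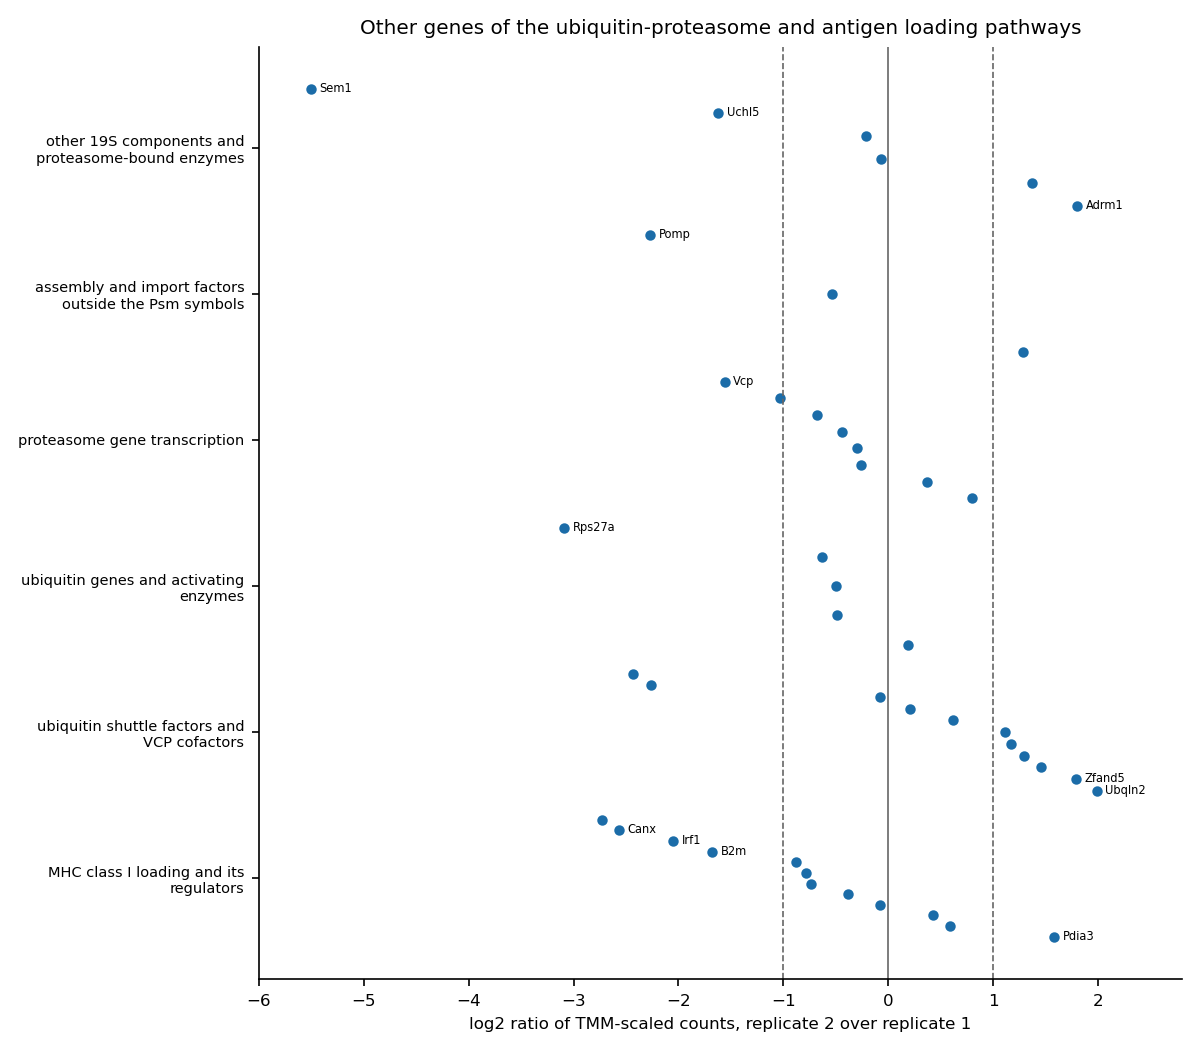
Log2 ratio of scaled counts, replicate 2 over replicate 1, for the 45 compared genes of 6 lists outside the Psm symbols, 1 point per gene, spread vertically within a list in order of ratio, with dashed lines at 2-fold. Adrm1, Zfand5, Ubqln2 and Pdia3 lie to the right, and Sem1, Rps27a and Canx lie to the left.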

How the data were processed

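The authors deposited a gene table and a transcript table for each library, made on assembly mm10 with annotation GENCODE M4, per the file lists deposited beside them. Aligner and quantifier: not given in the sources used here. Per the file headers, the expected count is an estimated number of fragments that need not be whole. TPM, per the file headers, is the authors' level per effective length scaled to a fixed total, as a maximum likelihood estimate (used here) and a posterior mean. Rows without an Ensembl gene (26345, with 15 counts in replicate 1 and 0 in replicate 2) were left out. GENCODE M21, whose assembly GRCm38 is that of mm10, gave symbols (42462 genes, 98.0%), GC content and positions.

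Expected counts were rounded for TMM factors from edgeR 4.0.16 in R 4.3.3 (1.16 for replicate 1 and 0.859 for replicate 2, genes averaging 10 or more counts). Alternative size factors came from DESeq2 1.42.0. Ratios carry exact Clopper-Pearson 95% intervals, conditional on the summed count. Intervals and floors cover counting error only. GC and length trends were removed by lowess (fraction 0.3). The rest was computed in Python 3.11.15 with pandas 2.3.3, numpy 2.4.6, scipy 1.17.1, statsmodels 0.14.6 and matplotlib 3.10.9. The ratio script was tested on simulated data. Named are all catalytic, immunoproteasome and activator genes, the highest and lowest of each other group, members under 1 TPM or at 0 counts, the 5 largest and smallest ratios, members whose dominant transcript differed, the 3 highest and the lowest gene of each other list, and all antigen loading genes. Some genes this rule names are not reported here, and others were named after their values were seen. Members, lists and rules were chosen with earlier results of these data known. Of 51 pathway entries, Paaf1 was not matched.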

Additional observations from a re-analysis of the deposited data

How the results depend on the processing

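The count of members at a mean of at least 1 TPM was 48 without replicate 2 and 36 without replicate 1, and their median level was 30.6 and 11.6 TPM. No recomputed count ratio of a member past 2-fold in the main setting changed direction under these alternatives. By posterior mean TPM, Psmd13, Psmd14 and Psme4 did change direction. Of members within 2-fold, Psmb3 (42.0 and 35.9 TPM by posterior mean in replicates 1 and 2) and Psmg4 (31.1 and 28.3 TPM) also did. Psmg4, within 2-fold in the main setting, had a log2 ratio of 1.02 with the length trend removed and a negative one under total counts. The median log2 ratio of members less that of all compared genes was -1.19, and it was -0.87 with the GC trend removed, -1.05 with the length trend removed, -1.04 at a mean count of at least 10, -1.17 at a mean of at least 50 CPM and -1.38 with at least 1 count in each library. Members at least 2-fold lower numbered 28 of 43, where 33.8% of all genes were. They numbered 7 of 17 at a mean of at least 50 CPM, where 15.8% of all genes were. Under the other settings they ranged from 23 of 43 with the length trend removed to 33 of 43 under total counts. Under total counts, 43.5% of all genes were as much lower. At a mean count of at least 10 they numbered 32 of 48, and 32 members passed the looser threshold of 1.5-fold. Members at least 2-fold higher numbered 0, and 1 with the length trend removed (Psmg4, log2 ratio 1.02) or at a threshold of 1.5-fold (Psmd3). Under scaling by total counts, all compared genes had a median of -0.74 in place of -0.30 and members one of -1.93, and under DESeq2 size factors the medians were -0.17 and -1.36. The mean ratio of Psmb9 to Psmb6 was 0.160 by TPM and 0.243 by expected counts, which keep gene length. That of Psmb10 to Psmb7 was 30.7 by TPM and 11.1 by posterior mean TPM. That of Psme1 to Psme2 was 1.90 by TPM, 1.55 by posterior mean TPM and 3.35 by expected counts. The same dominant transcript was kept by 24 of 31 members, by 21 of 32 on posterior mean TPM, and by 6 of 7 with at least 100 counts in replicate 2, where fewer genes are compared. Except where a reason is given, the cause was not tested. No paired analysis was possible because there was 1 group. Setting genes at 0 counts to a floor of 3 counts was chosen after seeing the data and left the count at 28. Replicate 2, at 2275922 counts, limits every member ratio, and members with 1 to 5 counts there are known only within wide intervals.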

Other observations

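Several members lie beside each other or beside genes of the same pathway (GENCODE M21, GRCm38). On chromosome 17, Psmb9 (34181987 to 34187764, minus strand) overlaps Tap1 (34187553 to 34197225, plus strand) at their start regions, with the starts 211 bases apart, and Psmb8 (34197721 to 34201454) begins 495 bases after the end of Tap1. Between the libraries the scaled ratio was 0.552 for Psmb9 (0.359 to 0.813), 1.35 for Tap1 (1.13 to 1.60) and 0.273 for Psmb8 (0.189 to 0.383), so the interval of Tap1 lay above those of its neighbours. The strand setting of the counting is not given in the sources used here, so fragments from the overlap cannot be assigned with certainty. The RefSeq start of Psmb9 used for its promoter lies inside these GENCODE bounds. The overlap and the distance between the starts hold for GENCODE M21 only. On chromosome 14, Psmb5 and Psmb11, 3410 bases apart, had 237 and 0 TPM in replicate 1, and Psme1 and Psme2 lie 5911 bases apart.

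For Psmd6, a lid gene, the leading annotated transcript was a retained intron in both libraries, with 57.5% of the gene's TPM in replicate 1 and 62.1% in replicate 2. The posterior mean TPM of Psme4 was 2.14 in replicate 1 and 5.59 in replicate 2, against maximum likelihood levels of 1.83 and 0.25 TPM, so the direction of its difference on the TPM scale, like those of Psmd13 and Psmd14, depended on the deposited estimate.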
